A study of Homo sapiens with 8 samples.

Results

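The B cell receptor and B cell identity set comprised 9 genes, CD79A, CD79B, BLK, CD22, MS4A1, CD37, CD40, PAX5 and IRF4, of the 20565 annotated genes in long-read tables of 3 human cell lines. Its members were taken by gene symbol among the genes classed as known, and all 9 were present, with 360 transcript models of 506946 in the tables and 180 models with at least 1 read. Native RNA was read directly on an Oxford Nanopore instrument, without conversion to amplified cDNA, from total RNA of untreated GM12878 (3 libraries), HepG2 (3 libraries) and K562 (2 libraries). GM12878 is a lymphoblastoid line, that is, B cells immortalised with Epstein-Barr virus, and HepG2 comes from a hepatocellular carcinoma. K562 carries the same cell type label as GM12878, a lymphoblastoid line, whereas it is known as a myelogenous leukaemia line with erythroid features. The labels name no treatment and do not say whether replicates were separate cultures. Apart from that shared label, each kind of cell stands here as 1 line. The p-values therefore reflect only how far these libraries lie apart, and that spread may be technical.

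The B cell receptor is a membrane immunoglobulin held in a complex with the signalling chains CD79A and CD79B, whose cytoplasmic tails are phosphorylated by Src-family kinases such as BLK when antigen binds. CD22 dampens that signal, MS4A1 (CD20) and CD37 are membrane proteins of mature B cells, and CD40 receives help from T cells. PAX5 commits progenitors to the B lineage and activates several of the surface genes, and IRF4 acts in activated B cells and on the way to plasma cells.

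Libraries held 70374 to 176118 reads in GM12878, 248490 to 461497 in HepG2 and 142837 and 313454 in K562. The 9 genes drew 258, 288 and 95 reads in the GM12878 libraries, 0.158% ± 0.0188 (SD, n = 3) of the reads of annotated genes. They drew 5 reads in the 3 HepG2 libraries together and 9 reads in both K562 libraries. All 9 genes were read in each of the 3 GM12878 libraries, as befits a B cell line, while K562 went against its label: 6 of the 9 had no read there. In K562 all 12 genes of an erythroid list were read, at a summed level of 32094 to 34279 CPM (read counts scaled to the TMM-adjusted total of tested genes in a library), against 0 to 11.6 CPM in GM12878. Of 12 hepatocyte genes, all were read in HepG2, none in K562 and 1 in GM12878.

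**Figure D1:**
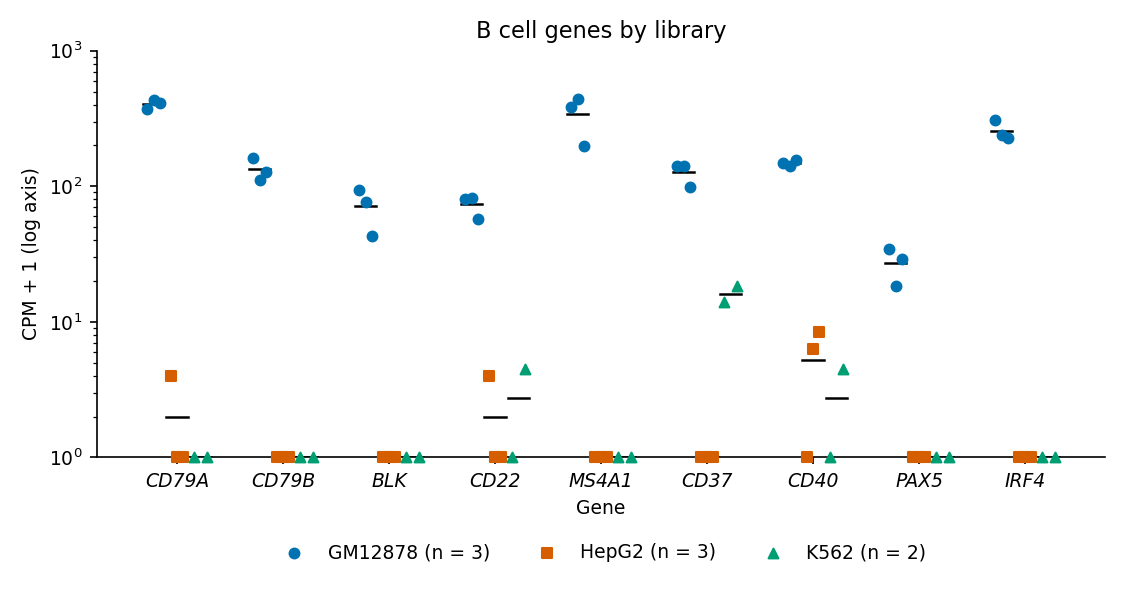
Level of each of the 9 genes in each of the 8 libraries, as CPM + 1 on a log axis; points are libraries, bars are means of a line, and a point at 1 is a library with no read. All 9 genes lie higher in every GM12878 library than in any HepG2 or K562 library, and CD37 is the only one read in both K562 libraries.

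The signalling chains of the receptor were read almost solely in GM12878. CD79A (ENSG00000105369.9, chr19:41877120-41881372, GRCh38) stood at 373, 431 and 408 CPM in GM12878 replicates 1, 2 and 3, a mean of 404 ± 28.8 CPM (SD, n = 3). One read in HepG2 replicate 1, 2.96 CPM, was the only one elsewhere. CD79A had the highest mean CPM of the 9 genes, though it lay above MS4A1 in only 1 of the 3 libraries. Its coefficient of variation between libraries, 7.13%, was among the smallest of the set. From pooled reads CD79A was 323-fold higher in GM12878 than in HepG2 (95% counting interval 57.1 to 12837), with an edgeR quasi-likelihood adjusted p of 6.39e-18, and at least 59.8-fold higher than in K562, adjusted p = 2.82e-14. Without HepG2 replicate 1, which holds that read, the fitted log2 change against HepG2 was 9.17 in place of 7.77. A fold called "at least" sets the line without reads at a floor of 3 reads over all its libraries, 3.76 CPM in HepG2 and 6.76 CPM in K562. It takes the observed mean of the line with reads, so it is no strict lower bound where those reads are few. Floors and intervals cover counting error only, and a floor covers it only for the line without reads.

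CD79B (ENSG00000007312.12, chr17:63928740-63932354, minus strand) had 160, 110.5 and 126.5 CPM in GM12878, 132 ± 25.2 CPM, and no read in the other 5 libraries. Its level was at least 35.2-fold higher than in HepG2 (edgeR adjusted p = 6.49e-11) and at least 19.6-fold higher than in K562 (adjusted p = 4.39e-08). Per kilobase of the principal transcript CD79A stood at 321 and CD79B at 104 CPM per kilobase, and their libraries did not overlap.

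Both chains were read mainly as spliced transcripts, and reads were assigned to more than 1 annotated isoform of each. Of 159 CD79A reads in GM12878, 72 (45.3%, exact 95% interval 37.4 to 53.4) were assigned to the 5-exon transcript CD79A-201 and 10 (6.29%, 3.06 to 11.3) to CD79A-202, with 25, 33 and 14 against 4, 3 and 3 reads by library. CD79A-202 lacks 114 bases at the end of exon 2, a multiple of 3, inside the coding sequence. Those bases, chr19:41879176-41879289, are in capitals below, within 144 bases across the junction of exons 2 and 3 from GENCODE 29; the other line is the same junction in CD79A-202.
CD79A-201: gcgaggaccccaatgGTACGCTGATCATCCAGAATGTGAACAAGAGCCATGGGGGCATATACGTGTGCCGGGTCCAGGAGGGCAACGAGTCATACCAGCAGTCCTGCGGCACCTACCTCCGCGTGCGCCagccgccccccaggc
CD79A-202: gcgaggaccccaatgagccgccccccaggc

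CD79B divided almost evenly between a pair of isoforms. CD79B-201 took 13 of 52 reads (25%, 14.03 to 38.9), and CD79B-203 took 12 (23.1%, 12.5 to 36.8), at 6, 5 and 2 against 4, 4 and 4 reads in the 3 libraries. The intervals overlap over nearly their whole width. Beside their outer ends, the isoforms differ by 3 bases at the start of exon 2, in capitals below. The lines give the junction of exons 1 and 2 on the minus strand, with the exon 2 part at chr17:63931366-63931388 in CD79B-203. The 3 bases, CAG, directly follow an exon 1 that itself ends in CAG. Whether base-calling errors moved reads between these isoforms was not tested.
CD79B-201: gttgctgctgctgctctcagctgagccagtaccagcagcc
CD79B-203: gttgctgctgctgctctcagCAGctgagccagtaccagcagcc

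Another 6 CD79B reads (11.5%, 4.35 to 23.4) went to CD79B-205, an annotated retained-intron transcript, and 1 to the short CD79B-202. CD79B shares its strand with an overlapping annotated gene, AC127029.3, and reads of that stretch could have been assigned to either.

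BLK (ENSG00000136573.13, chr8:11486894-11564604), the Src-family kinase, had 93.3, 75.6 and 42.2 CPM in GM12878, 70.4 ± 25.98 CPM, and no read in HepG2 or K562. Its level was at least 18.7-fold above HepG2 (edgeR adjusted p = 2.32e-08) and at least 10.4-fold above K562 (adjusted p = 4.29e-06). These values rest on 30 reads, 14, 13 and 3 by library. Most BLK reads were assigned to spliced models. The 13-exon BLK-201, 2606 bases long, took 8 reads, at 3, 5 and 0 by library, and the 3-exon retained-intron BLK-203 took 2. Of the 30 reads, 13 were in models with at least 13 exons, 8 in models that match only the 3′ part of an annotated transcript, and 2 in single-exon models.

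CD22 (ENSG00000012124.16, chr19:35319261-35347355), the inhibitory co-receptor that binds sialic acid, had 80.0, 81.5 and 56.2 CPM in GM12878, 72.6 ± 14.2 CPM. It had 1 read in HepG2 replicate 1 and 1 in K562 replicate 2. Pooled reads put CD22 at 60.9-fold (10.1 to 2486) above HepG2 and 33.9-fold (5.63 to 1383) above K562, with edgeR adjusted p-values of 6.45e-08 and 1.68e-05. Without the library that holds the outside read, the fitted log2 change was 6.76 in place of 5.36 against HepG2 and 6.84 in place of 4.74 against K562. Neither outside read belonged to a model seen in GM12878. A single GM12878 read of 30 was assigned to an annotated CD22 transcript, while 16 (53.3%) went to new combinations of annotated splice sites. The commonest of these had 13 exons, 3227 bases and 4 reads, against 14 exons and 3268 bases in the principal CD22-201.

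MS4A1, which encodes CD20 (ENSG00000156738.17, chr11:60455752-60470760), stood at 387, 442 and 197 CPM in GM12878, a mean of 342 ± 129 CPM, with no read in HepG2 or K562. Replicate 3 was at 0.576 of the mean of the 3, and MS4A1 had the widest spread of the set, a coefficient of variation of 37.6%. All 3 libraries nevertheless lay above every library of the other lines. MS4A1 was at least 91.0-fold higher than in HepG2 (edgeR adjusted p = 2.57e-16) and at least 50.6-fold higher than in K562 (adjusted p = 1.33e-12). Without reads in genomic models its fitted log2 change was 6.88 in place of 9.20 in both comparisons, and it remained called.

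CD37 (ENSG00000104894.11, chr19:49335171-49343335), a tetraspanin, had 140, 139.6 and 98.4 CPM in GM12878, 126 ± 23.9 CPM. It was the member most often read outside GM12878, with 2 and 5 reads in the K562 libraries, 13.0 and 17.2 CPM, and none in HepG2. GM12878 exceeded K562 by 8.39-fold in pooled reads (3.80 to 21.9), a log2 change of 3.01 ± 0.56 (SE) with an edgeR adjusted p of 2.13e-05, and exceeded HepG2 by at least 33.5-fold (adjusted p = 2.89e-11). Between K562 and HepG2, CD37 was the only 1 of the 8 tested members called, at least 4.02-fold higher in K562 with an adjusted p of 0.0021, where 17.4% of all 4778 tested genes were called higher in K562 and 26.7% higher in HepG2. That call rests on 7 reads, and no member passed the filter when only these lines were fitted.

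The K562 reads of CD37 were in part the same models as in GM12878. CD37-201, with 8 exons and 1265 bases, took 23 of 52 GM12878 reads (44.2%, 30.5 to 58.7) and 2 of 7 K562 reads, and 2 shorter models that match the 3′ part of an annotated transcript took 3 of the other 5. CD37-208, an annotated target of nonsense-mediated decay, took 3 GM12878 reads. CD37-208 lacks 4 coding bases at the end of exon 2, chr19:49335783-49335786, in capitals here because a loss of 4 bases shifts the reading frame.
CD37-201: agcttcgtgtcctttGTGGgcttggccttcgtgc
CD37-208: agcttcgtgtcctttgcttggccttcgtgc

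CD37 overlaps TEAD2 and AC011450.1 on the opposite strand, and BLK overlaps AC022239.1. CD22 shares its strand with U62631.1 and MIR5196. PAX5, whose reads were all unspliced, overlaps AL450267.1 and AL161781.2 on the opposite strand and MIR4540 and MIR4476 on its own. The sources used here do not state whether strand was used in counting, and whether reads of antisense partners were kept apart was not tested.

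CD40 (ENSG00000101017.13, chr20:46118272-46129863), the receptor for the CD40 ligand of T cells, had 147, 140 and 155 CPM in GM12878, 147 ± 7.51 CPM. Its coefficient of variation of 5.11% was the smallest of the 9, on 22, 24 and 11 reads. Counts this small scatter by counting alone, so that rank is no measure of steady expression. HepG2 replicates 2 and 3 held 1 and 2 reads, and K562 replicate 2 held 1. In pooled reads CD40 was 38.6-fold higher than in HepG2 (12.6 to 193) and 64.4-fold higher than in K562 (11.1 to 2587), with edgeR adjusted p-values of 2.16e-10 and 4.12e-08. Single libraries moved these values: the fitted log2 change against K562 was 5.68, and 7.78 without K562 replicate 2, and that against HepG2 was 5.06, with 4.28 without HepG2 replicate 1 and 5.74 without replicate 3. Of its 57 GM12878 reads, 54.4% were in new combinations of annotated splice sites. The commonest, with 8 exons and 1502 bases, took 14 reads (3, 9 and 2 by library) and 1 of the 3 HepG2 reads, while the principal CD40-202, with 9 exons, took 8. The annotated CD40-201 had no GM12878 read and the 1 K562 read.

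PAX5 (ENSG00000196092.12, chr9:36833275-37034185, minus strand) was the least abundant of the set at 33.3, 17.5 and 28.1 CPM in GM12878, 26.3 ± 8.09 CPM, from 5, 3 and 2 reads. It was not read in HepG2 or K562 and did not pass the filter on low counts. Its level was at least 6.999-fold higher than in HepG2 and at least 3.89-fold higher than in K562. An exact two-sided permutation test of GM12878 against the other 5 libraries gave p = 0.0357, the smallest that 56 assignments allow.

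IRF4 (ENSG00000137265.14, chr6:391739-411447) had 307, 239 and 225 CPM in GM12878, 257 ± 43.8 CPM, and no read elsewhere. It was at least 68.3-fold higher than in HepG2 (edgeR adjusted p = 1.81e-15) and at least 38.0-fold higher than in K562 (adjusted p = 6.83e-12). Of its 103 reads 96 were in genomic models, and without these IRF4 did not pass the filter and had no call.

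By reads, of which each stands for 1 RNA molecule, the order of mean CPM in GM12878 was CD79A, MS4A1, IRF4, CD40, CD79B, CD37, CD22, BLK and PAX5. Libraries of neighbours in that order did not overlap at 3 places: IRF4 above CD40, CD37 above CD22, and BLK above PAX5. Division by the length of the principal transcript changed the order, with IRF4 moving from place 3 to 6 and CD79B from place 5 to 2. That change comes from the divisor. Where each read stands for 1 molecule, the scale per length is no second measure of abundance and is given as a description. Many reads were assigned to models shorter than the principal transcript, as described below for IRF4, MS4A1 and PAX5. Per kilobase of principal transcript the order of mean levels in GM12878 was CD79A (321 CPM per kilobase), CD79B (104), MS4A1 (103), CD37 (99.6), CD40 (85.01), IRF4 (48.2), BLK (27.01), CD22 (22.2) and PAX5 (3.05). The libraries of neighbours did not overlap at 4 places: CD79A above CD79B, CD40 above IRF4, IRF4 above BLK, and CD22 above PAX5. CD79B, MS4A1, CD37 and CD40 overlapped from each to the next, as did BLK and CD22. GM12878 replicate 3, the shallowest library, was the lowest for 5 members and the highest for 1. The members' summed level was 1720, 1676 and 1336 CPM in replicates 1, 2 and 3.

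All 8 members that passed the filter were called higher in GM12878, at an adjusted p under 0.05 and at least a 2-fold change, against HepG2 and against K562. Over all tested genes 21.1% were called higher in GM12878 and 28% higher in HepG2 in the first comparison, and 14.8% higher in GM12878 and 13.9% higher in K562 in the other. Every GM12878 library exceeded every other library for 15.4% of tested genes, and for all 9 members. The members passed the filter through their GM12878 reads, so a count of called members among those tested was partly set in advance. The comparisons share the GM12878 libraries. In bulk RNA, fewer cells with a transcript and less of it per cell cannot be told apart.

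**Figure D2:**
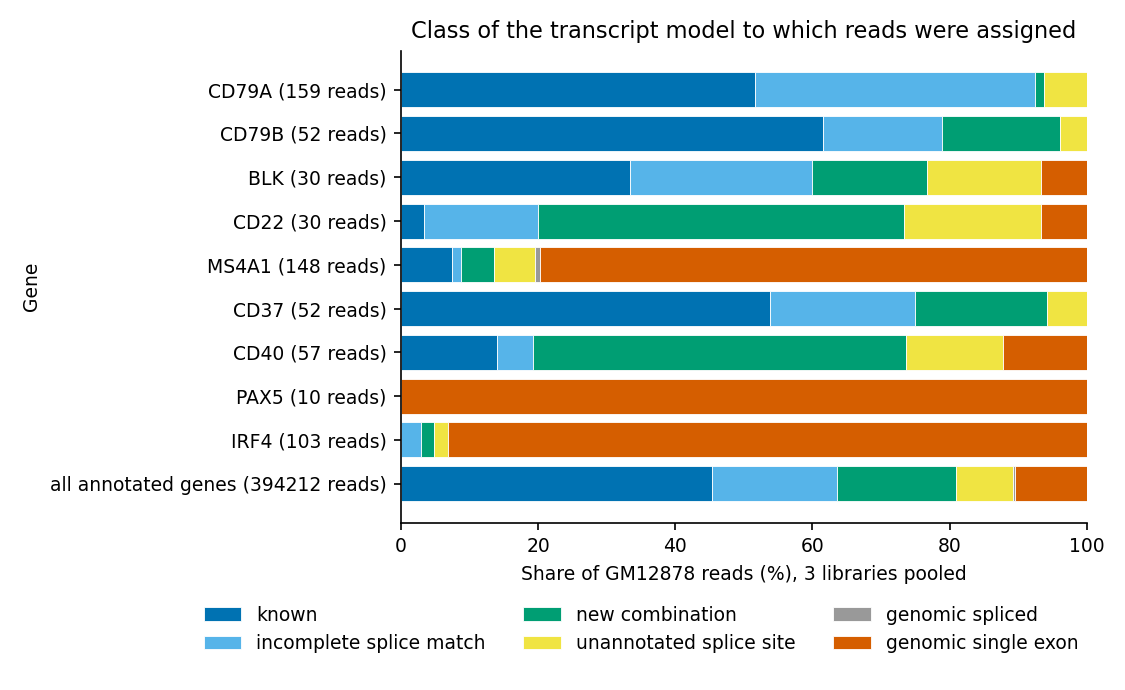
Share of GM12878 reads, in percent with 3 libraries pooled, by class of the transcript model to which they were assigned; each bar is a gene, with its read number, and the last bar is all annotated genes. Single-exon genomic models take 100% of the reads in PAX5, 93.2% in IRF4 and 79.7% in MS4A1, and are absent from CD79A, CD79B and CD37.

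How the RNAs were read differed sharply between members. Known models, those that match an annotated transcript, took 28.5% ± 5.48 (SD, n = 3 libraries) of the members' GM12878 reads, against 45.3% ± 0.72 over all annotated genes. Single-exon genomic models, which lie in a gene but match none of its splice junctions, took 35.4% ± 4.55 against 10.3% ± 1.29. These shares did not overlap between the set and all genes in any library: 24.4% to 34.7% against 44.8% to 46.1% for known models, and 30.5% to 39.5% against 9.43% to 11.8% for single-exon ones.

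Most of the genomic reads came from 3 genes. PAX5 had all 10 reads in genomic models (exact 95% interval 69.2% to 100%), IRF4 had 96 of 103 (93.2%, 86.5 to 97.2) and MS4A1 had 119 of 148 (80.4%, 73.1 to 86.5), of which 1 was spliced. CD40 had 12.3%, CD22 and BLK 6.67% each, and CD79A, CD79B and CD37 none. IRF4 had no read assigned to an annotated transcript, with an exact upper bound of 3.52%: its 7 other reads were 3 incomplete splice matches, 2 new combinations and 2 with an unannotated splice site. In MS4A1 the only annotated transcripts with reads were the retained-intron MS4A1-206, with 6, and MS4A1-208, with 5, and none of the 5 protein-coding ones listed had a read.

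**Figure D3:**
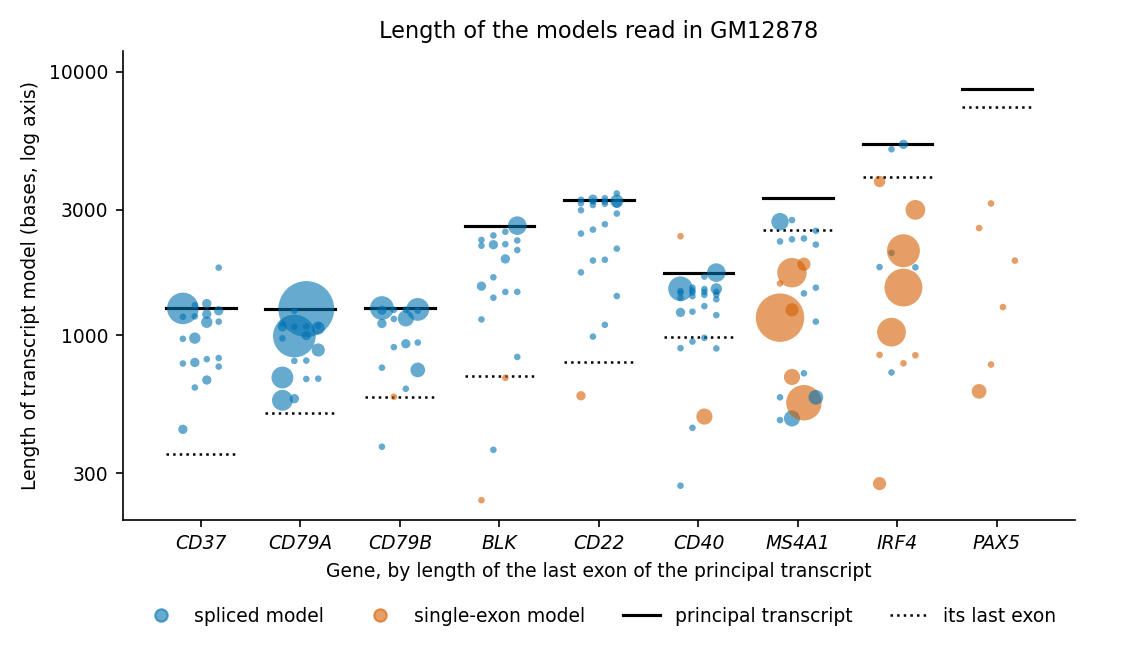
Length of each model read in GM12878, in bases on a log axis, by gene; a circle is a model, its area is proportional to its reads, and orange marks single-exon models. Genes run from the shortest to the longest last exon, and the single-exon models of MS4A1, IRF4 and PAX5 all lie under the dotted line for the length of that exon.

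The 3 genes are those with the longest last exons. The last exon of the principal transcript measured 7362 bases in PAX5, 3993 in IRF4 and 2503 in MS4A1, against 356 to 982 in the other 6. Over the 9 genes the share of reads in single-exon models followed the length of the last exon with a Spearman rho of 0.99 and a Pearson r of 0.90, as a description across genes that share libraries and depth. With the length of the whole principal transcript the values were 0.94 and 0.86, so the relation was not particular to the last exon. No single-exon genomic model of these 3 genes was longer than that exon: the longest was 3163 bases in PAX5, 3830 in IRF4 and 1861 in MS4A1. CD40 was an exception in the set, with 1 of its 7 such reads in a model of 2375 bases against a last exon of 982. The tables give unannotated models a length but no position, so where in the gene they lie was not tested.

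The same relation was weaker across genes. Among 2057 spliced genes with at least 30 GM12878 reads, Spearman's rho between last exon length and the single-exon genomic share was 0.61 and Pearson's r was 0.37. The median single-exon genomic share was 0% in 1338 genes with a last exon under 1000 bases, 17.6% in 472 genes from 1000 to 2499 bases, and 19.4% in 247 genes from 2500 bases. IRF4 and MS4A1 stood high even in that last group, where 6 and 25 genes had a larger share.

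The single-exon reads fell into a few recurrent models. In IRF4 models of 1518, 2093 and 1028 bases took 33, 25 and 19 reads, and the first of these had 16, 17 and 0 reads in replicates 1, 2 and 3. In MS4A1 models of 1167, 555 and 1728 bases took 54, 29 and 20 reads, and the first had 21, 27 and 6. PAX5 had 5 of its 10 reads in a model of 613 bases, seen in all 3 libraries. The median read of IRF4 was assigned to a model 28.5% as long as the principal transcript, that of MS4A1 35.03% and that of PAX5 8.06%. In CD37 that figure was 100%, in CD79B 98.5% and in CD22 96.0%.

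Incomplete splice matches, models with only some of the consecutive exons of an annotated transcript, held 16.2% ± 1.36 of member reads, against 18.2% ± 0.24 over all genes. Of the 105 such reads with an end assigned, 101 (96.2%) matched the 3′ end of the transcript and lacked its 5′ part, against 91.0% over all genes. CD79A held 64 of them, 42 in a 4-exon model of 994 bases and 11 in a 3-exon model of 692 bases. Of the 172 member reads in known models, 150 were protein coding, 19 retained an intron and 3 were targets of nonsense-mediated decay.

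RefSeq promoter windows, 250 bases before to 50 after a gene's start on GRCh38.p14, were matched for 4 of the 9 genes, IRF4, PAX5, CD22 and CD79A. BLK was left out of the match beforehand. Of the 4 windows, 2 are printed, for the most read signalling chain and the more read of the factors, up to the base before the GENCODE start. They are IRF4, chr6:391502-391738, with the letters TATAAA in capitals, and CD79A, chr19:41877029-41877119, with none marked.
IRF4: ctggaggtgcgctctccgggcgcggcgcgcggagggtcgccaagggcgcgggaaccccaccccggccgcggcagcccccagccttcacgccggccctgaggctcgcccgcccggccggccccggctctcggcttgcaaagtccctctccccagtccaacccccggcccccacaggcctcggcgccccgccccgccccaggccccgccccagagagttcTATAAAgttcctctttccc
CD79A: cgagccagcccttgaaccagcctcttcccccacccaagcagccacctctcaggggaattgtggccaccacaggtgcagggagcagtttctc

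In IRF4 the TATAAA lies at -32 to -27 from the RefSeq start, and in PAX5 at -238 to -233. On both strands, TATAAA was found in 2 of the 4 windows (IRF4 and PAX5) and in 11.5% of 35116 windows of the same length. The ETS core GGAA was in all 4 and in 95.5% of windows, and the E-box CANNTG in 3 and in 68.7%. None of the 4 held the octamer ATGCAAAT (1.77% of windows), GAAANNGAA for IRF factors (8.11%), CCCNNGGGA for EBF (8.86%) or GGGANNTTC for NF-kB (4.18%). Overlaps between motifs were allowed, and GGAA can lie within a longer match.

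The partners of the receptor were next examined in lists of related genes. On each list a gene read mainly in GM12878 could pass the filter through those reads alone, so counts and medians of the genes tested are partly set in advance and are given as a description. Over all tested genes 21.1% were called higher than in HepG2 and 14.8% higher than in K562, with median log2 changes of -0.03 and 0.05, where a line without reads is set at its floor. Among the co-receptors, CD81, a widely expressed tetraspanin, had 311 ± 59.9 CPM in GM12878 and no read in HepG2 (edgeR adjusted p = 4.01e-17), but 253 ± 8.61 CPM in K562, a difference that did not pass the test (adjusted p = 0.565).

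Signalling genes below the receptor moved in both directions against K562. Of 24 kinases, adaptors and phosphatases 15 were tested, of which 14 were called higher than in HepG2 and 11 higher, with 1 lower, than in K562. The median log2 change of those tested was 4.07 and 2.96. PTPN6, the phosphatase SHP-1, had 358 ± 44.6 CPM in GM12878 against 7.87 ± 7.42 in HepG2 and 3.45 ± 4.88 in K562, and was called against both (edgeR adjusted p = 4.47e-15 and 2.90e-12). INPP5D, the lipid phosphatase SHIP1, had 165 ± 83.2 CPM against 29.4 ± 9.998 in HepG2 and no read in K562 (adjusted p = 2.39e-07 and 7.70e-10). CSK, which restrains Src-family kinases, had 273 ± 31.5 CPM against 63.5 ± 11.8 and 69.6 ± 30.1, and FYN, itself such a kinase, 153 ± 30.3 against 4.96 ± 1.15 and 9.94 ± 4.30, and both were called against HepG2 and K562. PRKCB, a protein kinase C of this pathway, was the 1 gene lower than in K562, at 60.1 ± 18.99 against 146 ± 41.8 CPM (adjusted p = 0.0139), and had no read in HepG2. GRB2, an adaptor found in most cells, had 148 ± 29.5, 172 ± 39.7 and 92.4 ± 20.6 CPM in GM12878, HepG2 and K562 and was called in neither comparison.

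Other transcription factors of B cells were unevenly read. Of 17, 13 had GM12878 reads and 8 were tested, and 7 were called higher against each line, with medians of 4.22 and 3.22. POU2AF1, the octamer co-activator, had 93.3 ± 23.5 CPM in GM12878, 1.23 ± 2.13 in HepG2 and none in K562, and IRF8 had 81.2 ± 43.4 CPM and none elsewhere. MEF2C, a factor of B cell and muscle development, had 97.3 ± 48.5 CPM in GM12878, none in HepG2 and 13.4 ± 0.58 in K562. ID3, an inhibitor of E-box factors, was called higher by less, at 190.4 ± 32.7 CPM against 80.3 ± 11.7 in HepG2 and 63.6 ± 75.3 in K562. TCF3, the widely expressed E2A factor, was not called in either comparison, at 144 ± 20.5, 79.1 ± 2.05 and 166 ± 14.3 CPM in GM12878, HepG2 and K562. EBF1, a partner of PAX5 in lineage commitment, had 5 reads in GM12878 and none elsewhere and was not tested. BCL6, the germinal centre repressor, had none in GM12878 and 32 in HepG2, 37.9 ± 12.0 CPM. BACH2 and REL had no GM12878 read, and none of these 3 was tested. Other untested factors did have GM12878 reads: ETS1 22, POU2F2 13, IKZF1 10 and FOXO1 7. ETS1 and POU2F2 had none elsewhere, while IKZF1 had 9 in K562 and FOXO1 had 2 in HepG2.

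For CD40, 13 of 19 genes of its signalling were tested, and 10 were called higher against HepG2 and 11 against K562, with medians of 3.32 and 3.48. TRAF1, an adaptor of the receptor, stood at 212 ± 39.7 CPM in GM12878, with none in HepG2 and 5.17 ± 7.32 in K562, and NFKB2, which the pathway processes, at 142 ± 34.8, 22.7 ± 14.8 and 22.01 ± 12.8. CD83, an activation marker, had 118 ± 36.6 CPM in GM12878, none in HepG2 and 8.42 ± 2.73 in K562, and BIRC3, an inhibitor of apoptosis, 86.4 ± 30.1, 1.97 ± 3.42 and none. TRAF2, which binds the receptor with TRAF3, had 32.2 ± 19.8, 16.9 ± 6.38 and 45.3 ± 9.06 CPM in GM12878, HepG2 and K562 and was not called. RELA had 50.1 ± 23.9, 54.3 ± 3.39 and 55.5 ± 14.2 CPM, and did not pass the test either.

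Of 22 other surface proteins of B cells, 12 were tested and all 12 were called higher in GM12878 against both lines, with medians of 5.81 and 5.35. Among the untested genes, 4 had no GM12878 read: CD24, CD84, CXCR5 and MS4A7. CD24 had 2 reads in HepG2 and 2 in K562, while CD84, CXCR5 and MS4A7 were not read in any line. CCR7, the lymph node homing receptor, had 330 ± 131 CPM in GM12878 and FCER2 (CD23) 316 ± 46.6 CPM, against none in HepG2 and, in K562, 1.72 ± 2.44 CPM for CCR7 and none for FCER2. CD48 had 313 ± 39.9 CPM in GM12878 and none elsewhere, and the tetraspanin CD53 had 277 ± 32.9 CPM, none in HepG2 and 4.97 ± 2.15 in K562.

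**Figure D4:**
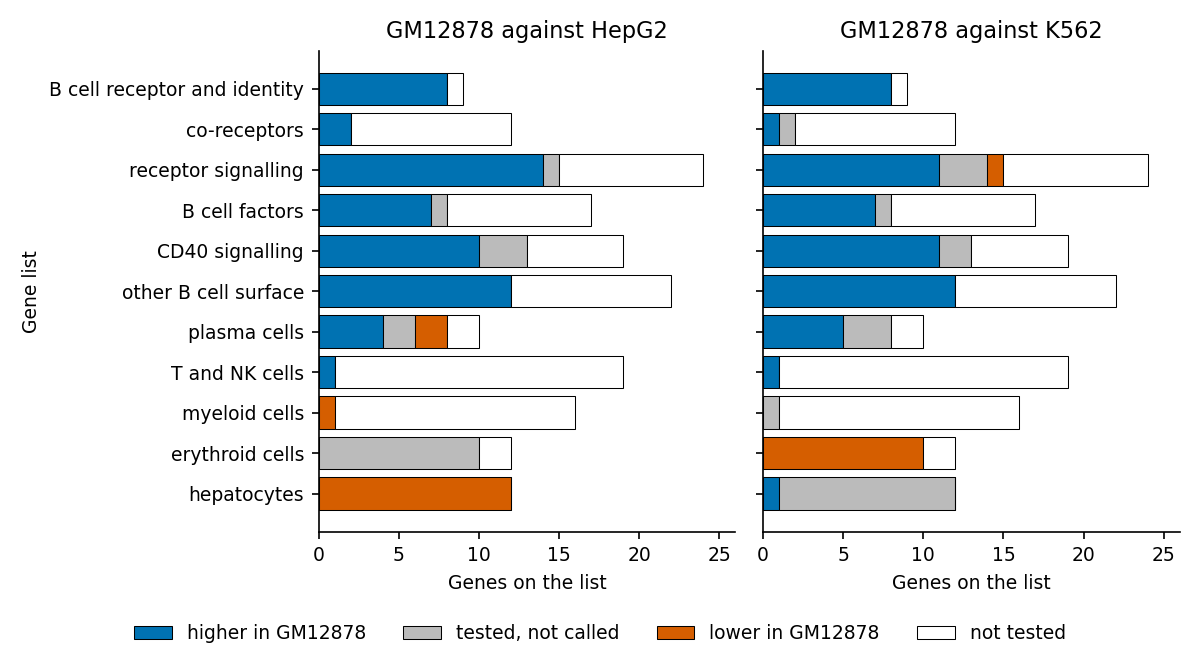
Number of genes on each list called higher in GM12878, called lower, tested and not called, or not tested, against HepG2 (left) and K562 (right). All 8 tested members and all 12 tested surface genes are called higher on both sides, while the erythroid and hepatocyte lists go the other way against K562 and HepG2.

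Markers of other cell types gave a mixed picture. Of 10 plasma cell genes 8 were tested: 4 were called higher and 2 lower against HepG2, and 5 higher against K562, with medians of 0.76 and 3.14. TNFRSF17 (BCMA) had 168 ± 32.2 CPM, SLAMF7 91.3 ± 13.6 and MZB1 65.9 ± 20.7 in GM12878, and none of these was read elsewhere. SEC11C, a signal peptidase subunit, had 281 ± 55.3 CPM in GM12878, 227 ± 37.0 in HepG2 and 20.3 ± 10.3 in K562, and was called against K562 (adjusted p = 1.18e-09) but not against HepG2 (adjusted p = 0.375), and SSR4, a subunit of the translocon, had 306 ± 18.4, 579 ± 74.0 and 549 ± 116 CPM and was called in neither comparison. By contrast, XBP1, a factor of secretory cells, was lower in GM12878, at 60.1 ± 3.88 CPM, than in HepG2, at 518 ± 94.5 (edgeR adjusted p = 1.89e-12), and so was SDC1, the plasma cell marker CD138, at 7.76 ± 13.4 against 194 ± 13.4 CPM (adjusted p = 4.12e-09). The GM12878 value of SDC1 came from 4 reads in a single library. Of 19 T and NK cell genes, 4 were read in GM12878, at a summed level of 239 to 343 CPM, and 1 was tested. That gene was TRAC, the constant region of the T cell receptor alpha chain, with 254 ± 38.6 CPM in GM12878 and no read in the other lines (adjusted p = 1.64e-15 and 6.32e-12). CD3D, CD3E and CD247, which carry that receptor, had no GM12878 read, and CD3D had 10 reads in K562 and 2 in HepG2. The others read in GM12878 were LCK with 12 reads, LAT with 5 and NKG7 with 3, and LCK also had 3 in HepG2. Of 16 myeloid genes, 6 were read in GM12878 at a summed 14.1 to 20.001 CPM, and LYZ, the 1 tested, had none there against 1778 ± 210.4 CPM in HepG2. The leading erythroid genes, the fetal globins HBG2 and HBG1, stood at 14009 ± 862 and 11139 ± 590 CPM in K562 and had no GM12878 read. Of the leading hepatocyte genes, ALB had none in GM12878 and SERPINA1 had 4 reads there, against 35390.3 ± 3788 and 29068 ± 2109 CPM in HepG2. Those 4 reads made SERPINA1 the 1 hepatocyte gene called higher than in K562 (adjusted p = 0.0446). They all came from a single GM12878 library, with a mean of 7.76 ± 13.4 CPM, so that call rests on that library.

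Genes whose levels ran most like the members' mean profile were ARHGAP30, HLA-DQB1, PLEK, TRAF3IP3 and MIR155HG. Each had a Pearson r of 0.997 with that profile over the 8 libraries, on log2(CPM + 1), and each had reads in GM12878 only, from 68.4 ± 10.6 CPM for MIR155HG to 352 ± 74.0 for PLEK. Of 4770 tested genes outside the set, 88 reached an r of 0.99, so the order among them carries little. Among the members themselves r with the profile, which contains them, ran from 0.884 for CD37, the gene read in both K562 libraries, to 0.997 for IRF4.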

How the data were processed

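Native RNA of 3 cell lines was sequenced by nanopore direct RNA sequencing. The submitters' processing notes name minimap2 and hg38. The authors deposited TALON tables of read counts per transcript model, not normalized, per the labels; the TALON version and its filters are not given in the sources used here. Length and exon number are other values of the deposited tables. Counts of all models of a gene were summed and fitted with edgeR 4.0.16 (R 4.3.3; TMM, filterByExpr with a minimum count of 10, robust quasi-likelihood, all 8 libraries in 1 fit, line as the only factor), with Benjamini-Hochberg adjustment over 4778 genes; DESeq2 1.42.0 was an alternative. All 20565 genes and 35496 known models matched GENCODE 29 by identifier. The fit was tested on simulated data. Replicate pairs (7) differed with a chi-square of 1.23 to 3.53 per degree of freedom, and each library was counted as its own sample. Gene lists, members and tests were chosen with earlier results of these data known. Named genes were all members and, per list, up to 4 called higher, 2 called lower and 2 not called, by abundance. Some genes that this rule takes are not reported here. Models were the up to 3 most read per member with at least 3 reads. EBF1, BCL6, BACH2, REL, ETS1, POU2F2, IKZF1, FOXO1, CD3D, CD3E, CD247, LCK, LAT and NKG7 were named after their values were seen. So were CD24, CD84, CXCR5 and MS4A7, the other annotated transcripts and the single-library counts of models.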

Additional observations from a re-analysis of the deposited data

How the results depend on the processing

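Against HepG2 and K562, each tested member kept its direction and its call in every alternative in which it passed the filter, 113 and 114 values in all, with log2 changes from 2.83 (CD37 against K562) to 9.53 (MS4A1). With known models only, 3 members passed and were called in each of these comparisons (CD79A, CD79B and CD37), and 0 between K562 and HepG2. Only 1702 genes were tested there, of which 777, 459 and 714 were called against HepG2, against K562 and between K562 and HepG2. The main fit called 2348, 1371 and 2105 of 4778. With known models only, CD37 between K562 and HepG2 had a log2 change of 3.03 (edgeR adjusted p = 0.141). Fewer reads are counted in that setting. Without a filter 17404 genes were tested, and 9 members were called against each line. Of these genes 3746 were called against HepG2, 1912 against K562 and 3298 between K562 and HepG2. Without genomic models IRF4 no longer passed the filter, and 7 members were called against each line. Of all 3868 genes tested there, 1842 were called against HepG2 and 1065 against K562. Fitting only the lines compared left 7 members against HepG2, without BLK, 8 against K562, and 0 between K562 and HepG2. In these fits 1800 of 3497, 944 of 3032 and 2364 of 5029 genes were called. Here too, members passed the filter through their GM12878 reads. CD40 between K562 and HepG2, not called, turned from -0.62 to 0.13 without HepG2 replicate 3, in a range of -2.78 to 0.13 when 1 library was left out. The known-model share of member reads was 44.0% without genomic models and 25.4% to 30.6% when 1 library was left out. The 45.3% over all annotated genes includes genomic models, so it cannot be set beside the 44.0%. For PAX5, leaving out 1 library, an alternative chosen after seeing the data, gave differences of 22.8 to 30.7 CPM with exact permutation p = 0.0571 or 0.0952, the smallest those designs allow. Same-numbered libraries had correlations of deviations from -0.04 to 0.03, and differently numbered ones from -0.04 to 0.04. Most tested genes have few reads and the deviations of the 2 K562 libraries mirror each other. These values therefore cannot exclude a shared batch, which was not tested. With a replicate block 8, 8 and 1 members and 2309, 1291 and 1998 genes were called, and no member's call changed. Leaving out a K562 library leaves 1, which is then assumed to vary like the other lines. Depth limits PAX5, BLK and CD22 most, with 10, 30 and 30 reads.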
